A study of Drosophila melanogaster with 31 samples.

Results

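The Cpr genes of Drosophila melanogaster encode cuticular proteins with the Rebers-Riddiford consensus, and they were taken here as every gene whose symbol is Cpr followed by a digit. There were 70 of them among the 13821 genes of the count tables, and their levels were followed over antennae and brains, 2 antennal genotypes, an odor and light stimulus and brain age. The annotation places 35 on chromosome arm 3L, 21 on 2R, 5 on 2L, 5 on 3R and 4 on X.

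The Rebers-Riddiford consensus is a conserved stretch that lets a secreted protein bind chitin. Epidermal cells and the support cells of sensory hairs secrete these proteins with chitin to build cuticle, most of it before the adult emerges, and different members are laid down in different body parts and stages. The antenna of a fly is a cuticular appendage covered with olfactory and mechanosensory organs, whereas a dissected brain should carry cuticle-forming cells only as attached tissue such as tracheae. For most members no individual role beyond the shared domain is given here; Cpr66D and Cpr72Ec are known as proteins of the corneal lens of the compound eye.

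The study sequenced poly(A) RNA libraries of male flies that had been kept without sensory input or had then met odor and light. Antennal libraries came from the second and the third segment of flies aged 4 to 5 days, either wild-type OreR or the Orco2 mutant of the odorant co-receptor Orco, whose strain is given as w*; TI{TI}Orco2 and so also carries a white allele. Each antennal genotype had 2 libraries at 0 min (replicates A and B in OreR, B and C in Orco2) and 2 after the stimulus, whose label lists 10, 20 and 30 min without saying how these were combined. The brain libraries were all wild-type OreR: 3 each (A, B and C) at 0, 10, 20, 30 and 45 min at 4 to 5 days, called 5-day brains here, and 2 each (A and B) at 0 and 30 min at 10 and at 25 days. How many flies went into a library is not stated, Orco2 is a single mutant strain, and strain background and the Orco lesion cannot be told apart. The replicates are not further described, so the p-values measure the spread between these libraries.

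The 31 libraries held 18529552 to 76745338 estimated counts. Orco, the targeted gene, stood at 1990 to 2040 counts-per-million (CPM) in the 4 OreR antennal libraries and at 7.65 to 8.59 in the 4 Orco2 libraries. The 13 antennal markers summed to 14332 to 22198 CPM in antennae and to 5.95 to 16.2 CPM in brains, and none of the 13 was at 0 in every brain. Several libraries stood apart in markers of other tissues. In antennae, 9 retinal markers summed to between 1007 and 9321 CPM, with 8 of the 9 present in every antennal library. In brains, 10 muscle markers reached 1518 CPM in the 5-day 10 min library A against 91.5 at the lowest, and 10 midgut markers reached 13721 CPM in the 10-day 30 min library A against a median of 4.09.

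Of the 70 genes, 57 reached at least 3 counts in some antennal library and 45 did so in some brain library, 42 of them in both tissues. Another 15 reached this level only in antennae, 3 only in brains (Cpr65Eb, Cpr5C and Cpr11A) and 10 in neither. Of those 10, Cpr49Ad, Cpr65Ax1 and Cpr67Fa1 had no count in any library. Most members therefore contributed few reads: a filter on low counts kept 28 for tests among antennae, 18 for tests among brains and 29 for the test of antenna against brain, leaving out 42, 52 and 41. Among the members left out, the highest count in any one library was 23 in antennae and 52 in brains. Cpr65Ax1 with Cpr65Ax2 and Cpr67Fa1 with Cpr67Fa2 are near-identical copies whose reads could be divided between the copies, so their low values are uncertain singly.

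A pair of members carried most of the Cpr signal in antennae. Cpr65Au (106 residues, 2 exons, 3L:6131242-6132109 in build dm6) stood at 3031 and 2858 transcripts-per-million (TPM, a level per length) in the OreR 0 min libraries A and B and at 2467 and 2808 TPM in the Orco2 libraries B and C. Cpr67B (260 residues, 2 exons, 3L:9404797-9406174) followed at 901 and 933 TPM in OreR and at 893 and 986 TPM in Orco2. Cpr65Au ranked 27 of 13821 genes by mean TPM in OreR antennae at 0 min and Cpr67B ranked 158. In normalised CPM, which carries no length correction, Cpr67B was the higher gene in every 0 min antennal library. The Cpr65Au transcripts have 453 and 526 bases, beside antennal fragments of 299 to 355 bases, so its TPM leans on that correction. Together they made up 87.4% to 92.9% of the summed Cpr TPM in the 8 antennal libraries. Their share of counts was smaller. Over the 2 OreR 0 min libraries Cpr65Au held 17655 and Cpr67B 23895 counts, where all members held 28280 and 30074 per library. At 0 min both OreR values of Cpr65Au lay above both Orco2 values in TPM, whereas Cpr67B overlapped between genotypes. In normalised CPM it was the reverse: Cpr65Au overlapped, at 505 and 335 in OreR and 469 and 320 in Orco2. Cpr67B did not overlap in CPM, at 566 and 552 in OreR and 615 and 588 in Orco2. In OreR both genes overlapped between 0 min and after the stimulus, at 3371 and 2947 TPM and at 813 and 957 TPM in the stimulated libraries.

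Below them the antennal levels fell off quickly. In OreR antennae at 0 min, Cpr72Ec reached 124 ± 146 TPM (SD, n = 2), Cpr62Bb 106 ± 11.2, Cpr49Ae 63.5 ± 23.7, Cpr73D 39.8 ± 3.79, Cpr51A 29.9 ± 6.53, Cpr64Ac 24.5 ± 0.221 and Cpr57A 24.2 ± 2.29 TPM. The order is firm only in part: the 2 libraries of Cpr72Ec, at 227 and 20.3 TPM, lie on either side of every one of these genes, and Cpr51A, Cpr64Ac and Cpr57A do not differ beyond their spread. In all, 23 members had a mean of at least 1 TPM in OreR antennae at 0 min and 13 had at least 10 TPM. In Orco2 antennae at 0 min the same counts were 20 and 12.

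In 5-day brains at 0 min, 12 members had a mean of at least 1 TPM and 3 had at least 10 TPM. Cpr65Au headed the list through a single library, with 99.6, 3.79 and 10.6 TPM in libraries A, B and C. Cpr67B stood at 34.9, 14.4 and 3.65 TPM and Cpr57A at 27.5, 14.6 and 4.84 TPM. All 3 genes were highest in library A. Cpr72Ec, at 10.0, 7.29 and 6.17 TPM, and Cpr78Cc, at 4.00 ± 0.475 TPM (SD, n = 3), varied less between libraries.

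**Figure D1:**
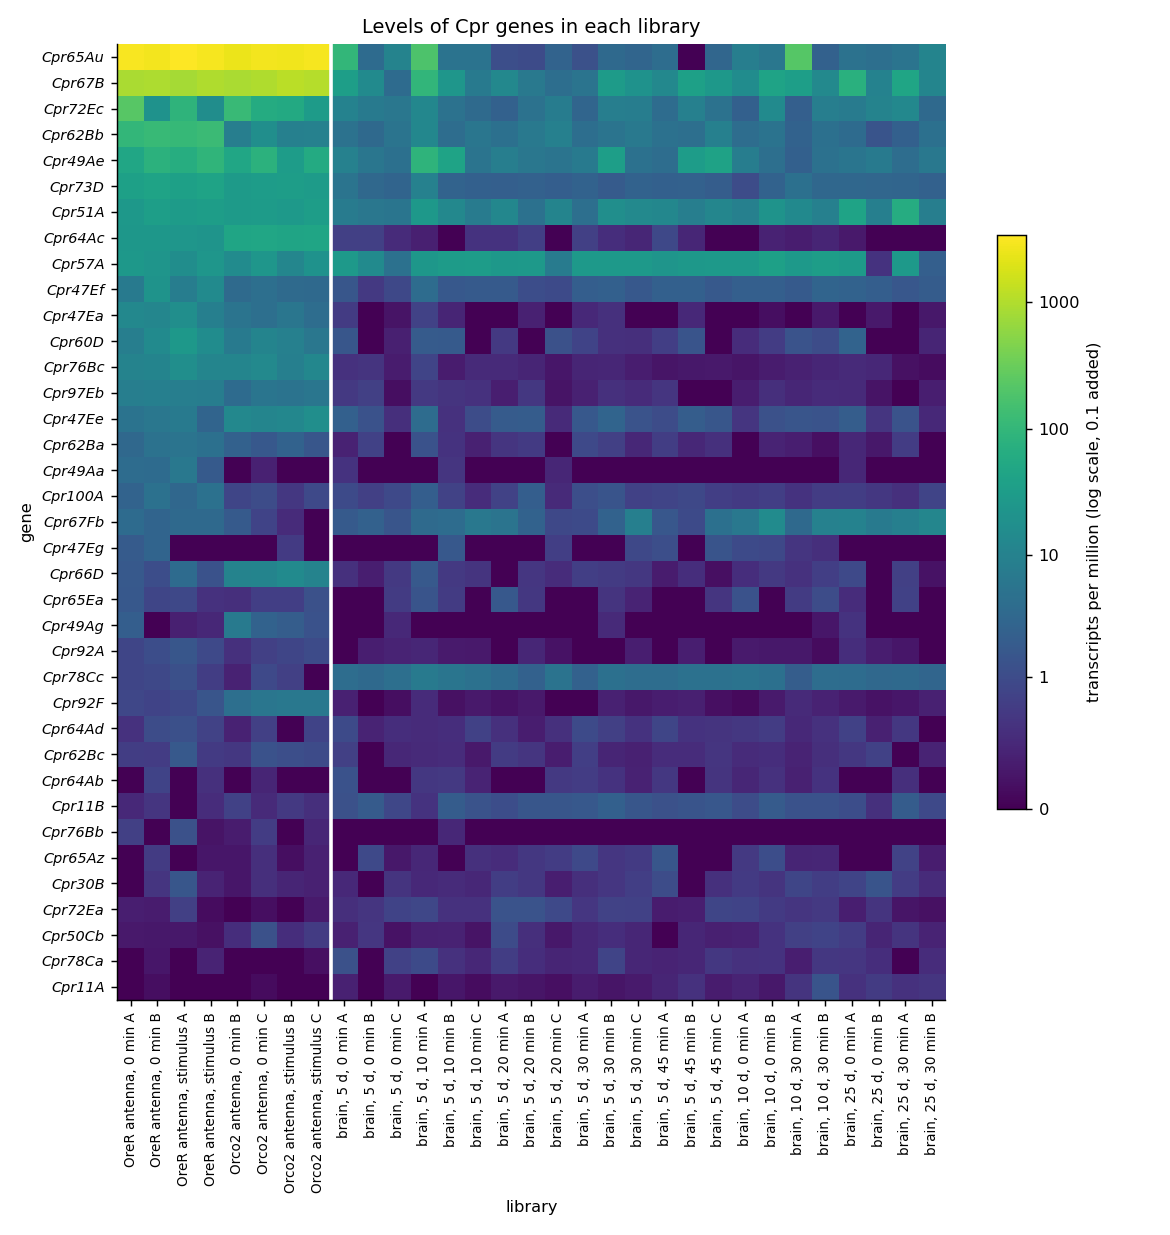
Levels of the 37 Cpr genes that reached 1 TPM in at least 1 library, with a row for each gene and a column for each of the 31 libraries; colour gives TPM on a log scale after adding 0.1, and the white line parts the 8 antennal from the 23 brain libraries. Cpr65Au and Cpr67B are the 2 brightest rows in every antennal library, while Cpr57A and Cpr78Cc are present in every brain library, Cpr57A at a level that varies widely.

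Neighbouring members did not share a level. Joining members no more than 20 kb apart gave 12 clusters that held 49 of the 70 genes, and 21 members lay alone. In the 65A cluster of 7 genes, Cpr65Au made up 99.98% of the summed level in OreR antennae, and the next gene stood at 0.314 TPM. In the 62B cluster of 3 genes Cpr62Bb made up 95.7%, in the 64A cluster of 4 Cpr64Ac made up 95.1%, in the 72E cluster of 3 Cpr72Ec made up 99.9%, and in the 76B cluster of 4 Cpr76Bc made up 93.2%. The 47E cluster of 7 genes was the exception among the larger ones, with Cpr47Ef at 40.5% and the next gene at 12.5 TPM. The encoded proteins ran from 93 residues (Cpr60D) to 1231 (Cpr76Bd), and the median length was 184 residues among members at 1 TPM or more in OreR antennae and 179 among the others.

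Some levels carry limits of counting. The library kit does not mark strand, so reads of a gene and of an overlapping partner cannot be told apart. Both transcripts of Cpr65Au lie under the antisense gene asRNA:CR46005 over 92.3% and 93.3% of their length, and Cpr67Fb lies under asRNA:CR45171 over 85.1%; neither partner was among the counted genes. Cpr57A lies wholly within exons annotated for Obp57d, an odorant-binding protein gene listed at 1.24 TPM in OreR antennae. Cpr47Ea shares 19.7% of its length with the odorant receptor gene Or47a, at 41.3 TPM in OreR and 47.1 TPM in Orco2 antennae.

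The split between transcripts differed by tissue for Cpr73D. FBtr0347065, which overlaps 294 bases of the mitochondrial enzyme gene Ogdh on the opposite strand, took 30.8% to 52.6% of the Cpr73D counts in the 8 antennal libraries and 65.3% to 100% in the 23 brain libraries. FBtr0113176, which does not overlap Ogdh, took the rest. Ogdh stood at 319 TPM in OreR antennae and 481 TPM in 5-day brains at 0 min, and its part in the Cpr73D counts was not tested. The brain level of Cpr73D is uncertain for this reason. The split of Cpr47Ef between its transcripts ran from 0% to 100% among libraries of either tissue and was not resolved.

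Antennae were compared with brains in unstimulated OreR males of 4 to 5 days to describe which members each tissue carries. Across the family the antennal level was the higher one: 22 members passed the test as higher in antennae, 1 as lower, and 6 did not pass (edgeR quasi-likelihood test, Benjamini-Hochberg adjusted over 11145 genes, threshold 0.05). Of all genes tested, 33% were called higher and 31.3% lower. The median log2 fold change was 3.96 over the 29 members tested and 0.13 over all genes. A member seen only in antennae enters this test only because it is high there, so the count is not one over all 70. Of the 17 members that the brain libraries alone would also have passed, 12 were called higher, 1 lower and 4 were not called.

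Cpr65Au showed the largest fold of a member with more than 3 counts in both groups. It stood at 429 and 282 CPM in the antennal libraries and at 5.61, 0.150 and 0.770 CPM in the brain libraries. Its log2 fold change was 7.37 ± 1.30 (SE, adjusted p = 0.0001366, edgeR), and every antennal value lay above every brain value. Cpr67B stood at 481 and 465 CPM against 10.7, 4.36 and 1.18 CPM, with a log2 fold change of 6.47 ± 1.03 (adjusted p = 5.494e-05, edgeR). Cpr62Bb stood at 47.2 and 50.9 CPM against 1.40, 0.902 and 1.59 CPM. Its log2 fold change of 5.20 ± 0.42 had the smallest adjusted p of the family, 3.825e-08 (edgeR), and its groups were far apart beside their spread.

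Among the members of middle level, Cpr64Ac rose from 0.152, 0.150 and 0.0684 CPM in brains to 10.9 and 9.93 CPM in antennae, a log2 fold change of 6.47 ± 0.93. Cpr76Bc rose from 0.190, 0.200 and 0.0684 CPM to 10.1 and 10.6 CPM, with 6.18 ± 0.54. Cpr73D rose from 5.73, 3.51 and 3.06 CPM to 55.8 and 63.1 CPM, with 3.86 ± 0.42. The groups did not overlap for any of the 3 genes. Cpr47Ef, at 9.99 and 29.6 CPM in antennae, and Cpr49Ae, at 31.1 and 50.7 CPM, had log2 fold changes of 4.54 ± 0.55 and 3.96 ± 1.02. The other members called higher in antennae with more than 3 brain counts lay between 1.49 (Cpr57A) and 6.73 (Cpr47Ea).

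Members with few counts gave bounds or wide ratios. Cpr23B had 8 and 10 counts in antennae and none in the 3 brain libraries, so it was at least 15.9-fold higher in antennae when 3 counts over the brain group are taken as the floor. Cpr49Aa had 37 counts in antennae and 1 in brains, a ratio of 98.2 with an exact interval from 16.6 to 3980 that covers counting error only. Both passed the test (adjusted p = 0.004952 and 0.002418, edgeR), and Cpr23B did not under DESeq2 (adjusted p = 0.253). Cpr49Ah, with 13 counts against 0, was at least 11.5-fold higher and was not tested.

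The 78C genes leaned the other way. Cpr78Cc stood at 0.131 and 0.108 CPM in antennae and at 0.303, 0.251 and 0.393 CPM in brains, a log2 fold change of -1.40 ± 0.58 (adjusted p = 0.04635, edgeR). The groups did not overlap, but the call rests on few counts and was lost under 8 of 11 alternatives, with adjusted p up to 0.174; among these were both antennal libraries and brain libraries A and C left out in turn. Over all libraries Cpr78Cc held 2.09 to 7.24 TPM in the 23 brains and 0 to 1.19 TPM in the 8 antennae. Its neighbours did not pass the filter on low counts and were not tested. Cpr78Ca had 18 counts in brains and 1 in antennae, a ratio of 6.79 (1.07 to 283), and Cpr78Cb had 35 and 2, a ratio of 6.60 (1.70 to 56.6). Cpr50Ca, Cpr11B and Cpr72Ea had negative log2 fold changes from -1.63 to -1.19 and did not pass.

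**Figure D2:**
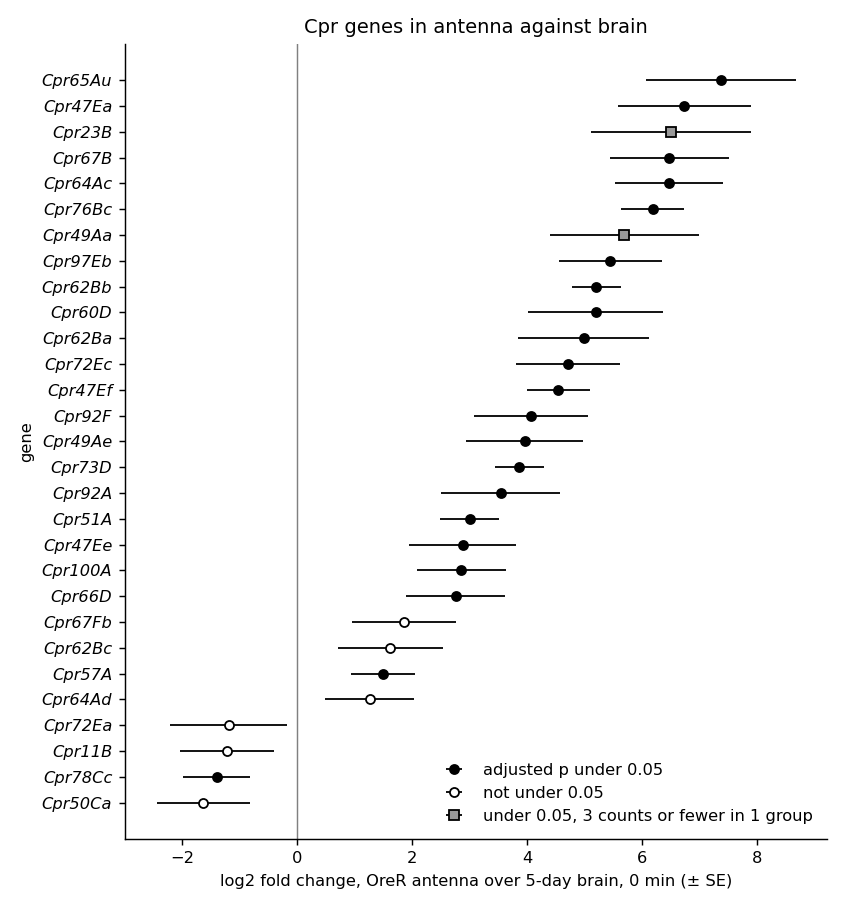
Log2 fold change of the 29 tested Cpr genes in OreR antennae over 5-day brains at 0 min, with its standard error; filled points have an adjusted p under 0.05, open points do not, and grey squares mark called genes with 3 counts or fewer in brains, whose fitted value is no bound. Of the 29, 22 lie above 0 and pass, and Cpr78Cc lies below 0 and passes.

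Cpr57A was called higher in antennae (log2 fold change 1.49 ± 0.56, adjusted p = 0.02835, edgeR) and lost the call under 6 of 11 alternatives, including the leaving out of brain library B (adjusted p = 0.0789) or C (0.0795) and of antennal library A (0.113) or B (0.0549). Cpr66D lost its call without antennal library A (0.0669). Retinal markers were also higher in antennae, 8 of 9 by the same test, beside the calls of Cpr66D and Cpr72Ec, and so were 6 of 10 muscle, 4 of 6 tracheal, 5 of 5 tested hemocyte and 5 of 9 fat body and oenocyte markers, with 3 of those 9 lower; their part was not tested. Antennae and brains were separate sets of libraries, so tissue, library run and fragment length cannot be told apart. In bulk RNA, a larger share of cuticle-forming cells and more RNA per cell cannot be told apart either.

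Other cuticle-related genes did not all share this direction. Of genes named for cuticle proteins outside the Cpr symbols, 3 of 6 tested were higher in antennae and 1 lower: Lcp65Ag2, with a log2 fold change of 6.44, and Pcp, with 3.37, were higher and Edg78E lower (-2.69). Of 7 Tweedle genes, a second family of cuticle proteins, 1 was higher and 4 lower, among them TwdlG at 2.50 CPM in antennae and 60.7 CPM in brains (log2 fold change -4.59 ± 0.17). Of 5 peritrophin-type chitin-binding proteins 4 were higher and none lower, led by obst-E (5.31 ± 0.94) and Gasp (3.60 ± 0.42), which lines the tracheae. Of 17 genes of tanning and pigment 13 were higher, among them amd (4.98 ± 0.31), and 2 lower, among them the dopa decarboxylase Ddc (-4.20 ± 0.26), which also makes dopamine and serotonin in neurons. Of 21 genes of chitin synthesis and turnover 10 were higher and 4 lower, and of 10 zona pellucida matrix genes 6 were higher and 1 lower. Of 10 Osiris genes 4 were higher and 1 lower, and of 14 ecdysone and cuticle regulators 2 were higher and 9 lower, among them br (-5.10 ± 0.42).

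Antennae of the mutant, which lacks the co-receptor of most odorant receptors, were set against OreR antennae. A few members differed strongly while the leading pair did not pass the test. At 0 min 4 of 28 tested members passed, 3 higher and 1 lower in Orco2, where 5.36% of all genes tested were called in either direction. After the stimulus, in separate libraries, 5 of 28 passed, 3 higher and 2 lower, where 7.15% of all genes were called. The 4 members called at 0 min were among the 5 called after the stimulus. The members' median log2 fold change was -0.24 at 0 min and -0.36 after the stimulus, beside 0.03 and -0.02 over all genes.

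Among the members called in both states, Cpr62Bb was the one that fell. The gene lies at 3L:1832636-1835164 and encodes 194 residues. It stood at 55.6 and 60.4 CPM in OreR and 5.16 and 8.99 CPM in Orco2 antennae at 0 min, and at 61.3 and 67.1 CPM against 5.62 and 5.40 CPM after the stimulus. All OreR values lay far above all Orco2 values. The log2 fold change was -3.05 ± 0.25 at 0 min (adjusted p = 0.001465, edgeR) and -3.54 ± 0.25 after the stimulus (adjusted p = 0.0007576, edgeR). In TPM it was the fourth member of the family in OreR antennae at 0 min and the ninth in Orco2 antennae.

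Its neighbours within the 62B cluster (3L:1824129-1842084) were less clear. Cpr62Ba stood at 1.64 and 2.27 CPM in OreR and 1.33 and 0.746 CPM in Orco2 at 0 min and did not pass (log2 fold change -0.91 ± 0.55, adjusted p = 0.5298, edgeR). Cpr62Bc had a log2 fold change of 0.59 ± 0.93 and did not pass either. The difference between Cpr62Bb and its neighbours was not tested.

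Cpr92F, Cpr66D and Cpr64Ac were higher in Orco2. Cpr92F (3R:20669571-20672821) stood at 1.13 and 0.986 CPM in OreR and 6.66 and 8.07 CPM in Orco2 at 0 min, and at 1.22 and 2.08 against 9.29 and 9.02 CPM after the stimulus. The log2 fold change was 2.80 ± 0.32 at 0 min (adjusted p = 0.004367, edgeR) and 2.46 ± 0.31 after the stimulus (adjusted p = 0.005599, edgeR). The groups did not overlap in either state, and Cpr92F went from a mean of 0.773 to 5.16 TPM at 0 min, from rank 26 to rank 14 of the 70 members.

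Cpr64Ac (3L:4211964-4212915, 188 residues), the carrier of the 64A cluster, changed by less and with less spread. It stood at 12.9 and 11.8 CPM in OreR and 26.3 and 23.2 CPM in Orco2 at 0 min, and at 12.4 and 11.2 against 23.5 and 23.3 CPM after the stimulus. This is a log2 fold change of 1.01 ± 0.13 at 0 min (adjusted p = 0.006075, edgeR) and 0.99 ± 0.13 after the stimulus (adjusted p = 0.005727, edgeR). Its call was lost without OreR library B at 0 min (adjusted p = 0.0613) and without Orco2 library B after the stimulus (adjusted p = 0.0535).

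The corneal lens protein gene Cpr66D (3L:8640439-8643584, 270 residues) stood at 1.23 and 0.729 CPM in OreR and 8.35 and 7.36 CPM in Orco2 at 0 min, and at 2.73 and 0.906 against 10.7 and 7.47 CPM after the stimulus. The log2 fold change was 3.00 ± 0.56 at 0 min (adjusted p = 0.02835, edgeR) and 2.34 ± 0.53 after the stimulus (adjusted p = 0.04967, edgeR). The groups did not overlap, but the call was lost without any 1 of the 4 libraries at 0 min, with adjusted p up to 0.175. After the stimulus it was lost without OreR library B or either Orco2 library, with adjusted p up to 0.242.

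The other lens protein gene, Cpr72Ec (3L:16365894-16367340, 429 residues, 1 exon), had the same order as the retinal markers within each group. In OreR it stood at 231 and 20.0 CPM at 0 min and 92.0 and 17.3 CPM after the stimulus, beside retinal marker sums of 7230, 1007, 4307 and 1626 CPM. In Orco2 it stood at 129 and 61.0 CPM and then 59.0 and 31.8 CPM, beside sums of 9321, 4094, 4631 and 2607 CPM. Within each group the library with more Cpr72Ec was also the one with the higher marker sum, and the genotypes overlapped. In every group that library was also the one of shorter fragments, at 302 bases in OreR and 299 in Orco2 against 355. Marker level and fragment length cannot be told apart within these groups. The log2 fold change for genotype was -0.40 ± 1.20 at 0 min and did not pass. Cpr66D had the same order within each group. Every Orco2 library, at 7.36 to 10.7 CPM, lay above every OreR library, at 0.729 to 2.73 CPM. Of the 9 retinal markers, 8 could be tested between genotypes; edgeR called 0 in either state, with 0 at 0 min and 1 after the stimulus at an unadjusted p under 0.05, limma called none, and DESeq2 called 1 after the stimulus, norpA. Their part in the Cpr66D result was not tested.

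Markers of other cells also moved with genotype. The 6 hemocyte markers summed to 159 to 225 CPM in the OreR libraries and 359 to 423 CPM in the Orco2 libraries, and 2 of 5 tested, Ppn and Sr-CI, were called higher in both states. The 9 fat body and oenocyte markers summed to 2010 to 2789 CPM in OreR and 2553 to 4347 CPM in Orco2; Lsp2 and to were called higher at 0 min and to after the stimulus. The midgut marker tobi and the mechanosensory marker nompA were called lower in both states. After the stimulus the mechanosensory marker btv and the glial marker wrapper were called higher and the muscle marker TpnC41C lower. The part of these cells in the Cpr results was not tested.

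Cpr100A (3R:30867521-30869184, 241 residues) lay lower in Orco2 in both states. It stood at 2.52 and 4.46 CPM in OreR and 0.802 and 0.950 CPM in Orco2 at 0 min, and at 3.11 and 4.56 against 0.448 and 0.872 CPM after the stimulus. It passed after the stimulus (log2 fold change -2.54 ± 0.54, adjusted p = 0.03847, edgeR) and missed the threshold at 0 min (-1.99 ± 0.53, adjusted p = 0.09321, edgeR), and the difference between the states was not called. Each of the 4 stimulated libraries, left out in turn, ended the call, with adjusted p up to 0.227.

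Cpr49Aa had almost no counts in Orco2 libraries. It had 19 and 18 counts in OreR at 0 min and 34 and 13 after the stimulus, against 0 and 1 and then 0 and 0 in Orco2. The OreR level was 73.9 times the Orco2 level at 0 min, with an exact interval of 12.5 to 2996 from counting error, and after the stimulus at least 27.5-fold higher with 3 counts over the group as the floor. The edgeR test did not call it (adjusted p = 0.1589 and 0.07119), and DESeq2 called it in both states. Its neighbour Cpr49Ag lay the other way and spread widely, with 13 and 0 and then 1 and 2 counts in OreR against 132 and 20 and then 35 and 13 in Orco2; it did not pass (adjusted p = 0.6237 and 0.3675, edgeR).

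The 47E cluster split in direction without a call. Cpr47Ef stood at 11.8 and 35.2 CPM in OreR and 6.38 and 7.39 CPM in Orco2 at 0 min, with log2 fold changes of -1.77 ± 0.51 and, after the stimulus, -1.67 ± 0.51. Cpr47Ea had -1.26 ± 0.44 and -1.35 ± 0.44. Cpr47Ee had 1.18 ± 0.43 and 1.59 ± 0.43, from 4.98 and 5.75 CPM in OreR to 13.6 and 10.6 CPM in Orco2 at 0 min. The genotypes did not overlap for any of the 3 genes in either state, and adjusted p ran from 0.0795 to 0.219 (edgeR).

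Cpr65Au and Cpr67B, which dominate the family, did not pass in either state. The log2 fold change of Cpr65Au was -0.09 ± 0.32 and -0.18 ± 0.32, and that of Cpr67B 0.11 ± 0.11 and 0.34 ± 0.11 (adjusted p = 0.1297 after the stimulus, edgeR). The antennal libraries fall into a pair of fragment-length classes, with 302 bases in OreR A and 299 in Orco2 B against 355 in OreR B and Orco2 C. Cpr65Au followed these classes in CPM, at 469 to 580 in the first and 320 to 357 in the second, with the genotypes mixed. Within each class, Cpr62Bb and Cpr100A were lower and Cpr92F, Cpr64Ac and Cpr66D higher in Orco2 in both states.

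Without the leading pair the remaining members summed to 567 and 445 TPM at 0 min and 488 and 437 TPM after the stimulus in OreR. In Orco2 they summed to 368 and 376 and then 291 and 305 TPM, all below the OreR libraries. The sum leans on members of high level: the 62B cluster, mostly Cpr62Bb, alone summed to 111 TPM in OreR at 0 min. Of the tested members, with the leading pair included, 12 were higher and 16 lower in Orco2 at 0 min. After the stimulus 9 were higher and 19 lower.

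**Figure D3:**
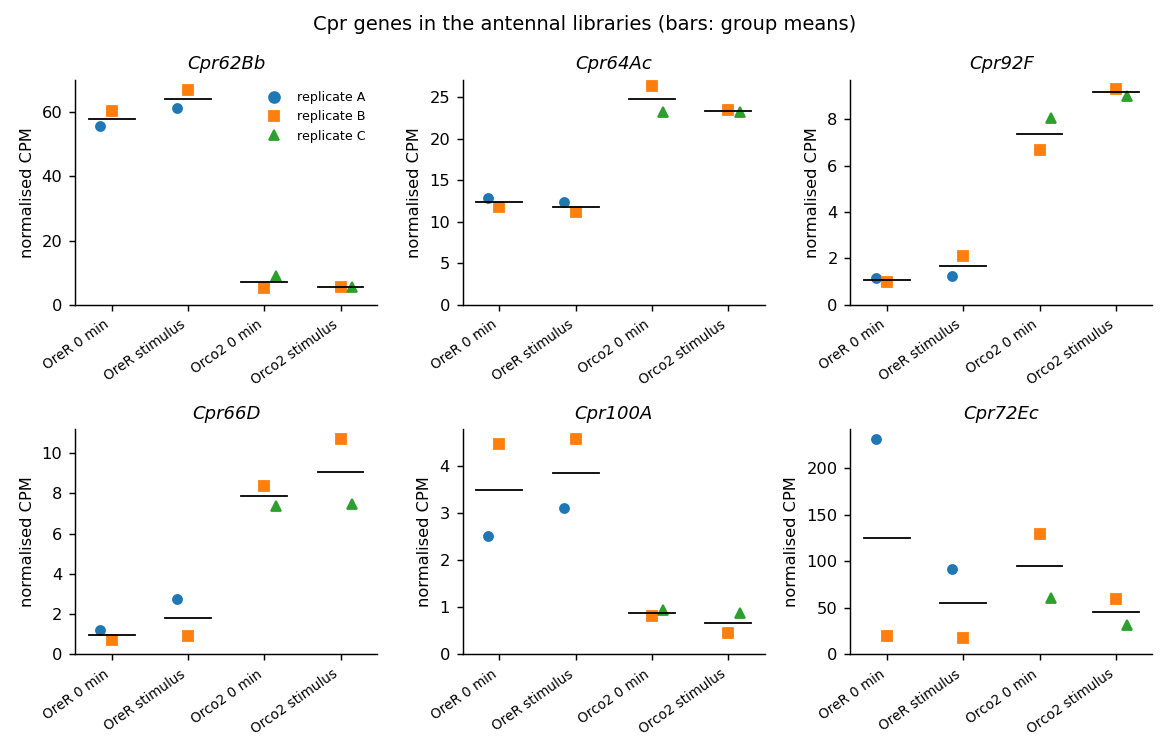
Normalised CPM of 6 Cpr genes in the 8 antennal libraries, by genotype and state; symbols mark the replicate letter and bars the group mean. Cpr62Bb and Cpr100A lie lower and Cpr64Ac, Cpr92F and Cpr66D higher in every Orco2 library, while Cpr72Ec overlaps between genotypes.

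The count of called members depended on the model. Leaving out OreR library B lowered it from 4 to 2 at 0 min; after the stimulus it fell from 5 to 3 without OreR library B, 2 without Orco2 library B and 3 without Orco2 library C. Cpr62Bb and Cpr92F were called in every one of these fits. At an unadjusted p under 0.05 (edgeR) were 11 of 28 members at 0 min and 14 of 28 after the stimulus. Over all 11298 genes tested these counts were 1843 and 2463. Averaging both states, an analysis chosen after the data were seen, called 10 members, where 13.7% of all genes were called. In it Cpr100A, Cpr47Ea, Cpr47Ef, Cpr49Aa, Cpr62Bb and Cpr97Eb were lower and Cpr47Ee, Cpr64Ac, Cpr66D and Cpr92F higher.

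**Figure D4:**
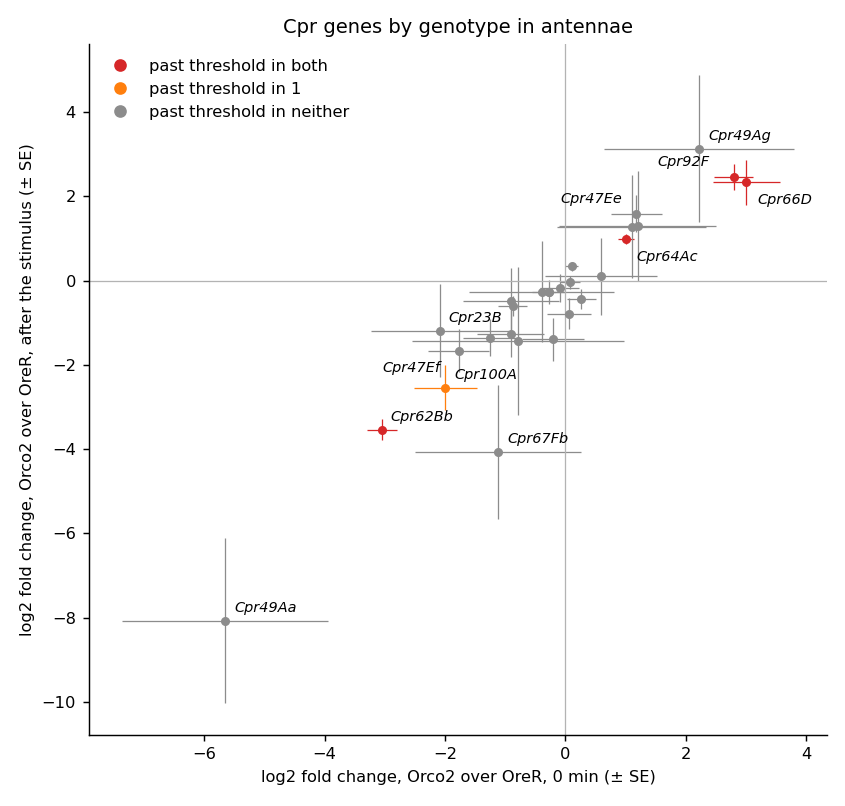
Log2 fold change of each of the 28 tested Cpr genes in Orco2 over OreR antennae at 0 min (x axis) and after the stimulus (y axis), with standard errors; colour shows in how many of the comparisons the adjusted p was under 0.05. The 4 genes called in both, Cpr62Bb, Cpr92F, Cpr66D and Cpr64Ac, keep their side of 0; the value of Cpr49Aa rests on 0 or 1 count per Orco2 library and is no bound.

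Other cuticle-related genes also differed by genotype, few in each list. At 0 min 2 of 5 peritrophin-type genes were higher in Orco2 and none lower, obst-E by 1.07 ± 0.11 and Peritrophin-A by 1.30 ± 0.26 on the log2 scale. Of 11 Osiris genes, which act in cuticle-secreting cells, 3 were higher and none lower: Osi3 had a mean of 0.0900 CPM in OreR and of 72.1 CPM in the mutant, Osi7 rose by 1.77 ± 0.33 and Osi24 by 2.81 ± 0.36. Of 20 genes of chitin synthesis and turnover 2 were higher, the chitinase gene Cht10 and the hexosaminidase gene Hexo2, and 1 lower, Cht2. Of 17 tanning genes 2 were higher, Hn at 2.19 ± 0.13 and Ddc at 1.70 ± 0.21. Of 10 zona pellucida genes pio was higher (0.47 ± 0.10) and nompA, which forms the cap over mechanosensory dendrites, lower at 7.72 against 136 CPM. Of 4 Tweedle genes edgeR and limma called 0 at 0 min, with 1 at an unadjusted p under 0.05. TwdlT was called by DESeq2 there and by edgeR after the stimulus (3.38 ± 0.70). Of 4 other cuticle protein genes edgeR and DESeq2 called 0, with 2 at an unadjusted p under 0.05, and limma called 1, Acp65Aa. Of 14 regulators all 3 tools called 0, with 0 at an unadjusted p under 0.05.

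No member responded detectably to odor and light in antennae. In OreR 0 of 28 tested members passed (edgeR), none had an unadjusted p under 0.05, and DESeq2 and limma called none; 0% of all genes were called. In Orco2 the count was again 0 of 28, with none at an unadjusted p under 0.05 and none by DESeq2 or limma, where 0% of all genes were called. The difference of the response between genotypes was called for 0 of 28 members, with none at an unadjusted p under 0.05 and none by the other tools, beside 0% of all genes.

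The members with the smallest p differed in size and in counts. In OreR, Cpr92F went from 1.13 and 0.986 CPM at 0 min to 1.22 and 2.08 CPM, a log2 fold change of 0.65 ± 0.31, and Cpr76Bc from 11.9 and 12.6 to 20.2 and 13.7 CPM (0.47 ± 0.24). Cpr60D went from 1.80 and 2.10 to 5.13 and 2.42 CPM in OreR. In Orco2, Cpr67B went from 615 and 588 to 745 and 660 CPM (0.22 ± 0.11). Cpr67Fb went from 0.274 and 0.0678 to 0.0373 and 0 CPM in Orco2, on 17 counts at 0 min and 2 after the stimulus. Libraries of the 2 states did not overlap for these genes, and none passed. Cpr65Au had log2 fold changes of 0.16 ± 0.32 in OreR and 0.07 ± 0.32 in Orco2, and Cpr62Bb 0.15 ± 0.23 and -0.35 ± 0.24.

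No member passed in any stimulus comparison of brains. In 5-day brains 0 of 18 tested members passed at 10, 20, 30 or 45 min against 0 min or in the joint test over the 4 times (edgeR), where 0% of all genes were called in each. The members with an unadjusted p under 0.05 were 2 at 10 min, 2 at 20 min, 2 at 30 min, 3 at 45 min and 3 in the joint test, and DESeq2 and limma called none. Over all 10431 genes tested these counts were 204, 93, 229, 181 and 182. In 10-day and in 25-day brains at 30 min against 0 min the count was 0 of 18, with 1 member each at an unadjusted p under 0.05, none by DESeq2 or limma, and 0% of all genes called. Of all genes tested, 335 and 75 had an unadjusted p under 0.05 at these ages.

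In 5-day brains Cpr47Ef had the smallest unadjusted p of the members at 10, 30 and 45 min. In the joint test of all times the unadjusted p was 0.01614 for Cpr65Au, 0.02252 for Cpr47Ef and 0.02418 for Cpr49Ae, with an adjusted p of 1 for each (edgeR). Cpr47Ef stood at 1.34, 0.393 and 0.737 CPM at 0 min, 3.23, 1.40 and 1.70 CPM at 10 min and 1.67, 0.916 and 0.797 CPM at 20 min. It then stood at 1.91, 2.14 and 1.46 CPM at 30 min and 2.09, 2.07 and 1.49 CPM at 45 min. All 3 libraries at 10, 30 and 45 min lay above all at 0 min, and the log2 fold changes were 1.35 ± 0.41, 1.15 ± 0.41 and 1.18 ± 0.41 (adjusted p = 0.8838, 0.8785 and 0.9354, edgeR). These comparisons share the 0 min libraries, so the difference is not seen 3 times over. Fragment length was 370 bases in libraries A and B and 336 in C at 0, 10 and 20 min. At 30 and 45 min it was 336 bases in all 3 libraries. Time and fragment length thus changed together in A and B at 30 and 45 min and cannot be fully told apart there.

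Cpr49Ae was high in single libraries. It stood at 33.1 and 15.6 CPM in libraries A and B at 10 min, 14.6 CPM in B at 30 min and 13.2 and 16.0 CPM in B and C at 45 min. Every other brain library held between 1.06 and 3.75 CPM. The muscle marker sums of those 5 libraries were 1518, 453, 513, 411 and 211 CPM, in a range of 91.5 to 1518 over all brains. These sums had a median of 211 CPM over all brains. They reached 425 CPM in a 5-day 0 min library, a group in which Cpr49Ae was at most 3.75 CPM. Their part in the Cpr49Ae values was not tested. The log2 fold change at 10 min was 2.71 ± 0.91 (adjusted p = 0.8838, edgeR), and the groups overlapped.

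Cpr65Au, near 0 in most brains, was high in 3. It stood at 5.50 CPM in the 5-day 0 min library A, 9.82 CPM in the 10 min library A and 17.9 CPM in the 10-day 30 min library A, and at 0 to 0.926 CPM in the other 20. The antennal marker sums of those 3 libraries were 15.6, 16.2 and 10.4 CPM, in a range of 5.95 to 16.2 over all brains. The 10-day library was also the one with 13721 CPM of midgut markers, and the 10 min library the one with 1518 CPM of muscle markers; neither was tested as a source. One library thus set the value in each group, as in 10-day brains at 30 min, where the log2 fold change of 4.05 ± 1.90 came from 17.9 and 0.170 CPM.

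**Figure D5:**
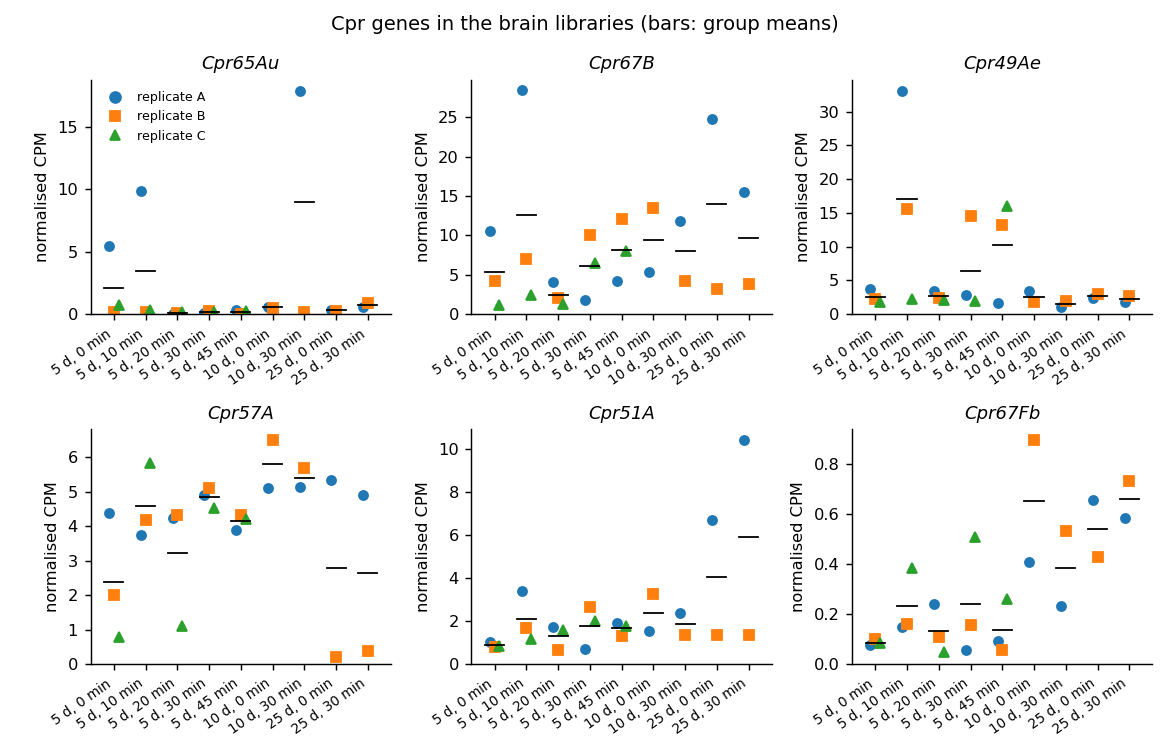
Normalised CPM of 6 Cpr genes in the 23 brain libraries, by age and time; symbols mark the replicate letter and bars the group mean. Cpr65Au and Cpr49Ae are high in 3 and 5 single libraries, and Cpr57A is lowest and Cpr51A lower than library A in both 25-day B libraries.

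In the comparisons at a single state, age gave no called member. At 0 min, 0 of 18 tested members passed for 10 against 5 days, where 0.115% of all genes were called, and 2 had an unadjusted p under 0.05. For 25 against 5 days the count was 0 of 18, where 1.65% were called, with 4 at an unadjusted p under 0.05. For 25 against 10 days it was 0 of 18, where 0% were called, with none under 0.05. At 30 min it was 0 of 18 for 10 against 5 days, where 0.671% were called, with 1 under 0.05, and 0 of 18 for 25 against 5 days, where 0.489% were called, with 2 under 0.05 (edgeR). Of all 10431 genes tested, 1755, 1653 and 342 had an unadjusted p under 0.05 in the 0 min comparisons, in the order given. At 30 min the numbers were 834 and 1856. DESeq2 called 1 member, Cpr65Au, for 10 against 5 days at 30 min and none in the other 4 comparisons, and limma called none in any of the 5. Fragments were 326 bases in the A and 336 in the B libraries of 10-day and 25-day brains. In 5-day brains at 0 min they were 370 bases in A and B, so age and fragment length cannot be fully told apart.

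Cpr67Fb had the smallest adjusted p of the members at 0 min in both comparisons with 5 days. It stood at 0.0743, 0.0982 and 0.0837 CPM at 5 days, 0.406 and 0.896 CPM at 10 days and 0.655 and 0.427 CPM at 25 days. These values rest on 9 counts over the 5-day libraries, 95 over the 10-day and 40 over the 25-day ones, so the fold changes are uncertain. All older libraries lay above all 5-day libraries, at log2 fold changes of 2.91 ± 0.79 for 10 days (adjusted p = 0.1002, edgeR) and 2.63 ± 0.80 for 25 days (adjusted p = 0.1143, edgeR). At 30 min it stood at 0.0563, 0.156 and 0.509 CPM at 5 days, 0.231 and 0.534 CPM at 10 days and 0.586 and 0.731 CPM at 25 days, and the 5-day and 10-day libraries overlapped. Cpr67Fb lies under an antisense gene, as given above, and both 0 min comparisons share the 5-day libraries.

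Cpr47Ef stood at 2.08 and 2.01 CPM at 10 days and 2.25 and 1.91 CPM at 25 days at 0 min, above all 5-day libraries at 0 and 20 min and within the range of those at 10, 30 and 45 min. Its log2 fold changes were 1.30 ± 0.44 and 1.33 ± 0.44 and did not pass. At 30 min they were 0.15 ± 0.44 and -0.17 ± 0.45. Cpr72Ea, of low level throughout, had a log2 fold change of -2.88 ± 0.83 for 25 against 5 days at 30 min (adjusted p = 0.1107, edgeR), from 0.169, 0.273 and 0.246 CPM to 0.0345 and 0.0244 CPM. That change rests on 24 counts over the 5-day libraries and 2 over the 25-day ones, below the floor of 3 counts.

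The 2 libraries of 25-day brains differed from each other in both states. Cpr51A stood at 6.70 CPM in library A and 1.35 CPM in B at 0 min, and at 10.4 and 1.37 CPM at 30 min. Cpr57A stood at 5.36 and 0.201 CPM, and then at 4.90 and 0.390 CPM. Library A was the higher one for both genes in both states. Cpr57A ranged from 0.787 to 6.50 CPM in all other brain libraries. The neuronal marker sums were 7393 CPM in A and 13920 CPM in B at 0 min and 7257 and 13352 CPM at 30 min, and fat body and oenocyte markers summed to 1171 and 3872 and then to 1340 and 3118 CPM; their part was not tested. Without the 25-day 0 min library A, Cpr50Ca passed for 25 against 5 days and Cpr57A for 25 against 10 days, 1 member in each. Without the 10-day 30 min library B, Cpr65Au passed for 10 against 5 days at 30 min, again 1 member, with library A alone standing for its group.

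Averaged over 0 and 30 min, a contrast chosen after the data were seen, 25 against 5 days called 3 of 18 members, where 12% of all genes were called. Cpr67Fb rose by 1.97 ± 0.54 (adjusted p = 0.02809, edgeR) and Cpr51A by 1.95 ± 0.54 (adjusted p = 0.03024, edgeR) on the log2 scale, and Cpr72Ea fell by 1.84 ± 0.54 (adjusted p = 0.0377, edgeR). Of the 25-day libraries, only A lay above all 5-day ones for Cpr51A. Cpr67Fb and Cpr72Ea had few counts, as given above. All 5 tested hemocyte markers were called higher too, with sums of 319 and 326 CPM in the 25-day A libraries, 128 and 95.6 CPM in B and 37.9 to 73.8 CPM in 5-day brains at 0 and 30 min; their part was not tested.

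The response at 30 min was also set against age, an analysis chosen after the data were seen. The difference in response was called for 0 of 18 members for 10 minus 5 days, 25 minus 5 days and 25 minus 10 days (edgeR), beside 0% of all genes each time, with 3, 2 and 0 members at an unadjusted p under 0.05. Cpr47Ef had a difference of -1.49 ± 0.63 for 25 minus 5 days and Cpr73D one of 1.68 ± 0.67 for 10 minus 5 days on the log2 scale, both at an adjusted p of 0.9999. DESeq2 was not run on these differences.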

How the data were processed

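Estimated counts and transcripts-per-million (TPM) per transcript were deposited by the authors for each library. The submitters' processing notes name kallisto 0.43.1, CASAVA 1.7, edgeR 3.18.1 and the build dm6; they also list GRCm38, a mouse build that was not used. The authors' estimated counts were summed per gene with the Ensembl annotation BDGP6.54 release 115, whose coordinates are printed, and rounded to whole numbers; 0.396% to 0.514% of counts belonged to transcripts without a match and were left out. The deposited TPM were summed per gene in the same way.

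Libraries held 18529552 to 76745338 counts. Groups were compared with edgeR 4.0.16 (R 4.3.3): TMM scaling, the filterByExpr filter, robust quasi-likelihood fits and Benjamini-Hochberg adjustment over all genes tested, threshold 0.05. A fit over 19 libraries (4 OreR antennal and 15 5-day brain libraries) served antenna against brain, a fit over 8 the antennae and a fit over 23 the brains. CPM are normalised within each of these fits, and so are not set across them. The standard error is the log2 fold change divided by the square root of F. DESeq2 1.42.0, limma 3.58.1 on log2(TPM + 0.5), relative-log-expression scaling, no filter on low counts, the replicate letter as a block, fragment length as a batch, the compared libraries alone and each library left out were tried. Intervals are exact at 95% and, like the floor of 3 counts, cover counting error only. The functions were tested on simulated data.

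Named are called members, members among the 3 of smallest p where none was called, members of highest TPM and up to 3 called genes of each other cuticle list. Some members called between antenna and brain are given only as a range, and not every member of smallest p is named. Members named for a marker, a cluster or a single library were picked with their values in view. Members and lists were chosen with earlier results of these data known. Whether replicate letters pair libraries is not stated. Deviations of same-letter 5-day libraries from their group means correlated at 0.522, 0.448 and 0.496 for A, B and C between 0 and 10 min. Between 0 and 30 min they correlated at -0.00386, 0.0262 and 0.430. Between unstimulated and stimulated libraries the value was 0.728 in OreR antennae and 0.0154 in Orco2 antennae. It was -0.195 in 10-day and 0.884 in 25-day brains. With the letter as a block, the count of members called for 10 against 0 min stayed at 0.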

Additional observations from a re-analysis of the deposited data

How the results depend on the processing

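The antenna against brain count of 23 lay between 20 and 26 under every alternative that could be fitted; fragment length as a batch could not be fitted there. For Orco2 against OreR antennae at 0 min (4 members called), DESeq2 gave 8, the replicate block 10, both states averaged (added after the data were seen) 10, and leaving out 1 library 2 to 4. After odor and light (5 called), DESeq2 gave 8, the replicate block 11, fragment length as a batch 9, the compared libraries alone 3, and leaving out 1 library 2 to 5. The counts over all genes moved as well: DESeq2 called 1112 at 0 min and 1548 after the stimulus, where edgeR called 606 and 808. Both states averaged called 1552 of all genes. For age, where 0 were called, the replicate block gave 1 for 10 against 5 days and 1 for 25 against 5 days at 0 min (Cpr67Fb in both) and 1 for 25 against 5 days at 30 min, as did fragment length as a batch (1, Cpr72Ea in both); both states averaged gave 3 for 25 against 5 days (Cpr51A, Cpr67Fb and Cpr72Ea), DESeq2 gave 1 for 10 against 5 days at 30 min, and leaving out 1 library gave 0 to 1 for 25 against 5 and 25 against 10 days at 0 min and for 10 against 5 days at 30 min. The cause was not tested. For 10 against 5 days at 30 min, DESeq2 called 240 of all genes and edgeR 70. The replicate block and the other alternatives called no member in any stimulus comparison, and no called value reversed. The letters are not stated to pair libraries: correlations of same-letter deviations ran from -0.361 to 0.743 among 5-day brains, the genotypes share only letter B, and for 10-day brains at 30 min and 25 against 10 days at 0 min a crossed block also called 0. Few members have the depth for a test.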
